A study of Mus musculus with 3 samples.

Results

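Natural killer (NK) cells of the mouse lung were taken from 3 single-cell RNA libraries by the transcripts they carried: at least 2 UMIs of Ncr1 and Klrb1c together, no UMI of Cd3d, Cd3e or Cd3g, and at most 1 UMI of Cd79a, among barcodes with at least 250 genes and at most 15% mitochondrial UMIs. A UMI is a molecular tag that counts 1 captured RNA molecule. The members were thus chosen by measured values, the UMIs of these gate genes, whose levels are no result here. The rule kept 956 NK cells of 28782 cells in all. They comprised 401 of 9886 cells from irradiated conditional knockout mice given a drug (below, knockout-drug), 303 of 5805 cells from irradiated wild-type mice, and 252 of 13091 cells from wild-type mice that were not irradiated. The labels name neither the knocked-out gene, its Cre driver, the drug, the dose, the time after irradiation, the age nor the number of mice. Each group is 1 library, so differences between groups have no replicate check, the knockout and the drug cannot be told apart, and neither can a group and its library.

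NK cells are innate lymphocytes that kill infected or transformed cells without prior sensitisation. They release perforin and granzymes from cytotoxic granules, secrete interferon-γ and chemokines, and read their targets through activating receptors such as NKp46 (Ncr1) and NKG2D and inhibitory receptors of the Ly49 and NKG2A families. The transcription factors T-bet (Tbx21) and Eomes set up this programme. In the mouse, CD27 marks the less mature stage, and CD11b (Itgam) and KLRG1 mark the mature stage, which predominates in the lung.

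The gated cells carried the NK programme that the gate did not use. Gzma, which encodes granzyme A, had a level of 8051 CPM (7935 to 8169) in knockout-drug cells, 7394 CPM (7259.6 to 7531) in irradiated wild-type cells and 7088 CPM (6958 to 7219) in non-irradiated cells, where CPM are UMIs per 1000000 NK UMIs and the ranges are exact Poisson 95% intervals. It was found in 97.3% of knockout-drug, 98% of irradiated wild-type and 98.8% of non-irradiated NK cells. In gated T cells it lay at 80.3 CPM in the knockout-drug, 119 CPM in the irradiated wild-type and 56.5 CPM in the non-irradiated library. Gated T cells held at least 2 UMIs of Cd3d, Cd3e and Cd3g together and none of Ncr1 or Klrb1c. T cells carrying either NK gene are thus not in this comparison, which can widen the gap. Prf1, the pore-forming perforin, stood at 1120.3 CPM in knockout-drug cells, 971 CPM in irradiated wild-type cells and 982 CPM in non-irradiated cells. Eomes stood at 231 CPM in knockout-drug cells, 323 CPM in irradiated wild-type cells and 210.2 CPM in non-irradiated cells. All intervals here and below cover counting error only and no difference between animals. The gate was narrow: 203 knockout-drug, 167 irradiated wild-type and 139 non-irradiated NK cells had exactly 2 gate UMIs, and a further 337 (knockout-drug), 290 (irradiated wild-type) and 261 (non-irradiated) cells had 1 gate UMI and stayed out.

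The libraries differed in what surrounded the NK cells. Whole libraries held 76667310 (knockout-drug), 45800421 (irradiated wild-type) and 85984536 (non-irradiated) UMIs, and the median NK cell had 4953 (knockout-drug), 4558 (irradiated wild-type) and 4972 (non-irradiated) UMIs. Cells with UMIs of female transcripts alone numbered 303 of the knockout-drug, 123 of the irradiated wild-type and 208 of the non-irradiated NK cells, and cells with Y-linked UMIs alone 2 (knockout-drug), 96 (irradiated wild-type) and 0 (non-irradiated). Only the irradiated wild-type library therefore held many male NK cells. Markers of other lung cells reached into the gate. Summed epithelial markers were at 549 CPM in knockout-drug, 616 CPM in irradiated wild-type and 3198 CPM in non-irradiated NK cells, and summed stromal markers at 160 CPM (knockout-drug), 88.1 CPM (irradiated wild-type) and 627 CPM (non-irradiated). Endothelial markers were at 199 CPM (knockout-drug), 68.8 CPM (irradiated wild-type) and 315 CPM (non-irradiated). Myeloid markers were at 238 CPM (knockout-drug), 734 CPM (irradiated wild-type) and 197 CPM (non-irradiated), with 93.7% of the irradiated wild-type myeloid UMIs in 3 cells. Markers of type 1 innate lymphoid cells (ILC1, relatives of NK cells) stood at 250 CPM (knockout-drug), 73.3 CPM (irradiated wild-type) and 294 CPM (non-irradiated), with all 6 markers detected in each library. T cell markers stood at 599 CPM (knockout-drug), 627 CPM (irradiated wild-type) and 633 CPM (non-irradiated), with Cd4 and Cd8a at 0 in the irradiated wild-type library, and B cell markers at 57.3 CPM (knockout-drug), 63.7 CPM (irradiated wild-type) and 57.2 CPM (non-irradiated). Markers of basophils, mast cells and ILC2 stood at 4.41 CPM (knockout-drug), 4.50 CPM (irradiated wild-type) and 13.1 CPM (non-irradiated), with Mcpt8 and Il13 at 0 in each library. The main values between libraries are therefore also given without NK cells holding more than 3 UMIs over 24 genes of other cell types, a choice made after seeing the data. These genes include Col1a1, Col1a2, Col3a1, Dcn, Acta2, Tagln, Cdh5, Cldn5, Mmrn1, Csf1r, C1qa, C1qb, Chil3 and Lpl. The others are S100a8, S100a9, Fscn1, Ccl22, H2-Aa, Alas2, Ms4a1, Cd79b, Cd4 and Cd8b1. Cells were left out by these genes, so a fall of their own levels in the smaller set was built in. The rule left out 27 knockout-drug cells (6.73%), 6 irradiated wild-type cells (1.98%) and 53 non-irradiated cells (21.0%). It used none of the epithelial or ILC1 markers and no haemoglobin gene, so the smaller set is not free of other cells' RNA. There, in irradiated wild-type over non-irradiated cells, 8 of 9 epithelial genes were at least 1.5-fold lower and 1 higher (median log2 ratio -2.34). All 9 stromal genes (median -1.91) and all 4 erythroid genes (median -4.83) were lower too. No cell barcode was shared between libraries among NK cells.

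The maturation states are shown first, because they can be compared inside each library. Stretches of 250 bases before the transcription start are printed for 5 NK genes among those with the smallest p between those states, picked for their known roles: Gzma, Gzmb and Prf1, which make the lethal contents of the granule, Emb, an adhesion-related membrane glycoprotein, and Xcl1, a chemokine that attracts cross-presenting dendritic cells. The sequences are from RefSeq (build GRCm38.p6), 5′ to 3′ on the gene's own strand. Capitals mark the core GGTGTG of T-box factors such as T-bet and Eomes (reverse CACACC) and the core TGTGGT of RUNX factors (reverse ACCACA), searched on both strands.
Gzma: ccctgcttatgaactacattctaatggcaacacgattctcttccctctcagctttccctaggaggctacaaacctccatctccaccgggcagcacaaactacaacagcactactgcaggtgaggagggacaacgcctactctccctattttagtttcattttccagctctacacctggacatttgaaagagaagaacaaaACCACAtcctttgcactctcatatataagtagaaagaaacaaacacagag
Gzmb: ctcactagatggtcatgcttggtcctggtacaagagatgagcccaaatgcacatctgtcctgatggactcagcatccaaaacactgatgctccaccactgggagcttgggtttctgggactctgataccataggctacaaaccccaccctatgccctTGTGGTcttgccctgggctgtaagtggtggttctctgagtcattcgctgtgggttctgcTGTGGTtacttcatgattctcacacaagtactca
Prf1: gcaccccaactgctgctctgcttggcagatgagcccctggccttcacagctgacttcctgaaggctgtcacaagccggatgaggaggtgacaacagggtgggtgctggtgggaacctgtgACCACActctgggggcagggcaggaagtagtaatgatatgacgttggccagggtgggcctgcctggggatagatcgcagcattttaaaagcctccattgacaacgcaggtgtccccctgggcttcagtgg
Emb: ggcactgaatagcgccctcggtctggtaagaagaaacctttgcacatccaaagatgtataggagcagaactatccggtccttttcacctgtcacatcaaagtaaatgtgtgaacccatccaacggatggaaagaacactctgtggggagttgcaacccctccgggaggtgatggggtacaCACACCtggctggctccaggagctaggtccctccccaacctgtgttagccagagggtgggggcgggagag
Xcl1: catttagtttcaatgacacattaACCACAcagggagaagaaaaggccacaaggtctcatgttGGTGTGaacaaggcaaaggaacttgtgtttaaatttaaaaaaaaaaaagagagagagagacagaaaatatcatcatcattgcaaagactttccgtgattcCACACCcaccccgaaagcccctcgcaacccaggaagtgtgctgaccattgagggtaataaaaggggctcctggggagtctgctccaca
The Gzma window lies at chr13:113100982-113101231 on the minus strand and holds 1 RUNX core, which begins at -50 from the start site. The Gzmb window, at chr14:56262335-56262584 on the minus strand, holds RUNX cores at -93 and -34. The Prf1 window, at chr10:61297586-61297835 on the plus strand, holds a RUNX core at -130. The Emb window, at chr13:117220323-117220572 on the plus strand, holds a T-box core at -70. The Xcl1 window, at chr1:164935523-164935772 on the minus strand, holds T-box cores at -188 and -88 and a RUNX core at -227. Among 32851 promoters of the same length, 16.3% hold the T-box core and 14.0% the RUNX core, so such letters are common. They are described here as sequence, not as sites shown to be bound.

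Gated cells with an Itgam or Klrg1 UMI carried more of the granule genes Gzmb, Gzma and Prf1 and of the Ly49 gene Klra9. Those with a Cd27 UMI carried more Emb, Xcl1, Ccr2 and Kit. The states, mature and Cd27, are named by these transcripts alone. Whether the Cd27 cells are early NK cells or ILC1 was not tested. NK cells with a UMI of Itgam or Klrg1 and none of Cd27 (209 knockout-drug, 165 irradiated wild-type and 136 non-irradiated cells) were set against NK cells with a Cd27 UMI and none of Itgam or Klrg1 (14 knockout-drug, 14 irradiated wild-type and 11 non-irradiated cells). UMIs were summed per library and state and tested with edgeR's quasi-likelihood test, with the library as a block, over 4936 genes. At a Benjamini-Hochberg adjusted p below 0.05, 46 genes (0.932%) were higher and 77 (1.56%) lower in Itgam or Klrg1 cells, and 518 genes had an unadjusted p below 0.05. The small Cd27 sums limit this test, and with every cell thinned to 1000 UMIs edgeR could test 357 genes and called 0 in either direction (30 at an unadjusted p below 0.05). Without the irradiated wild-type library, 7 genes were higher and 6 lower. Only 5 in each direction were called in all 3 fits that leave out a library: Gzmb, Prf1 and the haemoglobin genes Hba-a1, Hba-a2 and Hbb-bs on the higher side, and Emb, Ccr2, Gimap6, Ctla2a and Tiprl on the lower side. Every other gene of this contrast named below lost its call in at least 1 of those fits.

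Granule genes led the mature side. Gzmb, granzyme B, was at 5679.7 against 1845 CPM in the knockout-drug library, 4077 against 1719.6 CPM in the irradiated wild-type library and 4943 against 1843 CPM in the non-irradiated library, in Itgam or Klrg1 cells against Cd27 cells (log2 fold change 1.40 ± 0.10 (SE), adjusted p = 6.7e-11, edgeR). Prf1 was at 1292 against 485 CPM in the knockout-drug library, 1182 against 591 CPM in the irradiated wild-type library and 1159 against 397 CPM in the non-irradiated library, in the same order of states (log2 fold change 1.27 ± 0.15 (SE), adjusted p = 6.5e-07, edgeR). Both were higher in Itgam or Klrg1 cells in each library. Gzma rose less, with 9075 against 5534 CPM in the knockout-drug library, 9156 against 4621 CPM in the irradiated wild-type library and 8342 against 4505 CPM in the non-irradiated library in Itgam or Klrg1 against Cd27 cells (log2 fold change 0.83 ± 0.09 (SE), adjusted p = 2.7e-07, edgeR), and lost its call without the irradiated wild-type library. Nkg7, a granule membrane protein needed for degranulation, also rose (log2 fold change 0.62 ± 0.11). Of 15 granule genes tested, 4 rose and 0 fell, with a median log2 fold change of 0.36, against 0.03 over all genes tested.

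Further mature-stage genes rose alongside. Cma1, a chymase of mature mouse NK cells, had 350.4 against 118 CPM in the knockout-drug library, 459 against 169 CPM in the irradiated wild-type library and 297 against 76.8 CPM in the non-irradiated library in Itgam or Klrg1 against Cd27 cells (log2 fold change 1.57 ± 0.24 (SE), adjusted p = 7.0e-05, edgeR). Ly6c2, a Ly6 surface antigen of mature lymphocytes, had 460.2 against 177 CPM in the knockout-drug library, 484 against 52.7 CPM in the irradiated wild-type library and 356 against 89.6 CPM in the non-irradiated library (log2 fold change 2.02 ± 0.27 (SE), adjusted p = 6.4e-06, edgeR). The largest gaps for Ly6c2 were in the irradiated wild-type library, where the Cd27 cells held only 5 of its UMIs. Klra9, which encodes an inhibitory Ly49 receptor, rose by 1.64 ± 0.23 (log2) and was the 1 of 14 Ly49 and NKG2 family genes called. Klra genes are near-identical copies, so its counts are uncertain. S100a6, a calcium-binding protein, rose by 0.86 ± 0.15, and Klf2, a transcription factor that drives exit from tissue through S1pr1, by 0.65 ± 0.12. The inflammatory chemokines Ccl3, Ccl4 and Ccl5 rose by 0.91 ± 0.17, 0.77 ± 0.12 and 0.69 ± 0.10. Il18rap, a subunit of the interleukin-18 receptor, rose by 1.07 ± 0.23, Itgb2, the integrin chain that pairs with CD11b, by 1.05 ± 0.25, and Ets1, a transcription factor of early NK development, by 0.81 ± 0.21. The survival genes Bcl2a1b and Bcl2a1d rose by 0.95 ± 0.21 and 1.69 ± 0.36; they too are near-identical copies. Tmsb4x, an actin-binding peptide, and the noncoding AW112010 rose by 0.64 ± 0.09 and 0.76 ± 0.11. Of 15 late-maturation genes tested, 4 rose and 1, Rora, fell.

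**Figure D1:**
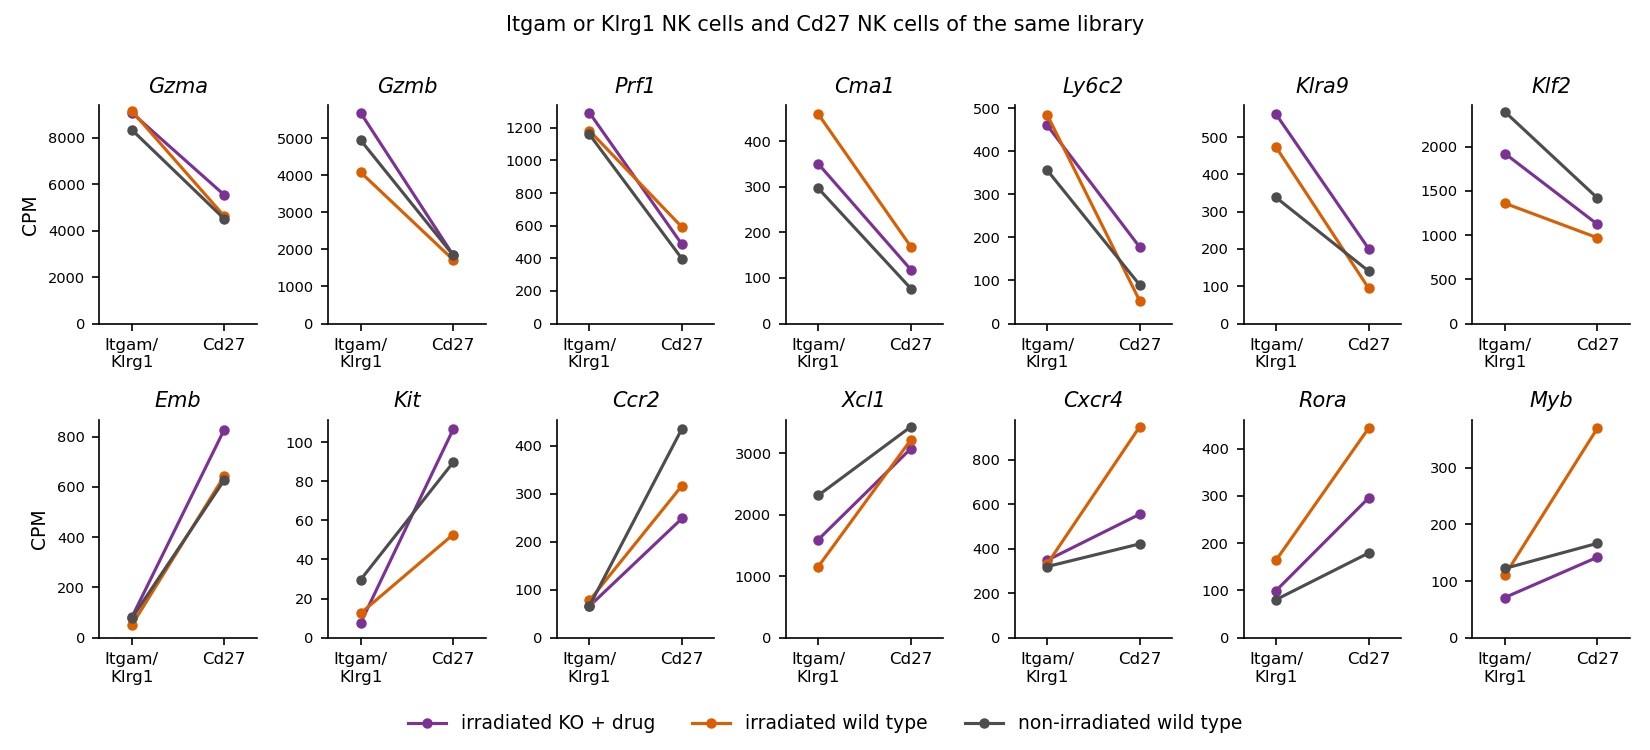
Level in CPM (vertical axes) of 14 genes in NK cells with an Itgam or Klrg1 UMI (left points) and NK cells with a Cd27 UMI (right points), joined within each of the 3 libraries (colours). The lines of the upper 7 genes go down and those of the lower 7 go up from left to right in every library; Emb, for example, is below 100 CPM on the left and above 600 CPM on the right.

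Emb, which is used to separate early NK cells and ILC1, gave the smallest p on the Cd27 side. It had 81.1 against 828 CPM in the knockout-drug library, 50.1 against 644 CPM in the irradiated wild-type library and 77.1 against 627 CPM in the non-irradiated library in Itgam or Klrg1 against Cd27 cells (log2 fold change -3.37 ± 0.21 (SE), adjusted p = 6.9e-13, edgeR), and the 3 Cd27 values lay above the 3 others. Ccr2, a receptor for monocyte chemoattractants, had 65.9 against 248 CPM in the knockout-drug library, 77.6 against 316 CPM in the irradiated wild-type library and 66.4 against 435 CPM in the non-irradiated library (log2 fold change -2.25 ± 0.27 (SE), adjusted p = 9.6e-07, edgeR). Both were higher in Cd27 cells in each library. Xcl1 had 1597 against 3075 CPM in the knockout-drug library, 1158 against 3218 CPM in the irradiated wild-type library and 2316 against 3430.1 CPM in the non-irradiated library (log2 fold change -1.02 ± 0.12 (SE), adjusted p = 7.4e-07, edgeR), so the mature state held less of it in each library while remaining rich in it. Kit, the stem cell factor receptor of progenitors, fell by 2.43 on the log2 scale in Itgam or Klrg1 cells, but its Cd27 sums held only 9 (knockout-drug), 5 (irradiated wild-type) and 7 (non-irradiated) UMIs. Rora, a nuclear receptor of innate lymphoid cells, fell by 1.44, Ctla2a, a protease inhibitor of early NK cells, by 1.20, the progenitor factor Myb by 1.17, Ikzf2 (Helios) by 2.23 and the chemokine receptor Cxcr4 by 0.96. Of 12 early-maturation genes tested, 5 fell and 0 rose, with a median of -1.19. Of 5 ILC1 genes tested, 2 fell (Rora and Ikzf2) and 0 rose, with a median of -0.51. At least 2 ILC1 markers were found in 5.49% of knockout-drug, 3.96% of irradiated wild-type and 15.5% of non-irradiated gated cells. The other genes with the smallest p on this side were Gimap6, a lymphocyte survival GTPase, the polyamine enzyme Odc1, Sft2d2, Tiprl and Nudt4, with log2 fold changes between -2.11 and -1.09.

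Ribosomal protein genes filled much of the Cd27 side: 38 of the 77 genes that fell were ribosomal protein genes, and 84 of the 88 measured had a negative fold change. None of the type I interferon (14 tested), interferon-γ and MHC class I (21 tested) or p53 target (14 tested) genes was called in this contrast by edgeR. Genes of other cell types moved with it: haemoglobin genes, S100a8 and S100a9 of neutrophils and Cldn5 of endothelium were higher in Itgam or Klrg1 cells, and Acta2 of smooth muscle was lower. Not every library shared this: in the irradiated wild-type library Hbb-bs had 52.6 against 63.3 CPM in Itgam or Klrg1 against Cd27 cells, and S100a9 in the knockout-drug library 21.1 against 35.5 CPM. Without cells of other types 36 of the 46 and 75 of the 77 calls were again called (1.5% of genes tested were then higher and 2.87% lower), among them each NK gene named above, as were Hbb-bs and Hba-a1, whereas S100a8, S100a9, Cldn5, Acta2 and Hba-a2 were not. S100a8, S100a9, Cldn5 and Acta2 are among the 24 genes used to leave those cells out, so the loss of their calls was at least in part built in. The part of other cell types in the remaining calls was not tested.

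Against the far more numerous NK cells with neither Itgam nor Klrg1, which may carry undetected copies of either, Klra9, Cma1, the granzymes A and B and Emb differed in the same direction with smaller fold changes, beside genes of other cell types. In this contrast, added after the data were seen, 224 knockout-drug, 181 irradiated wild-type and 152 non-irradiated cells met 177 knockout-drug, 122 irradiated wild-type and 100 non-irradiated cells, and 19 of 7063 genes (0.269%) rose and 18 (0.255%) fell, with 641 at an unadjusted p below 0.05; the percentages were 0.253 and 0.337 without cells of other types. Klra9 rose by 0.86 ± 0.09, Cma1 by 0.94 ± 0.11, Gzma by 0.51 ± 0.06 and Gzmb by 0.51 ± 0.06 (log2 ± SE), and each kept its call when any library was left out. Emb fell by 1.60. This contrast shares cells with the first, whose Cd27 cells are among those with neither gene and whose Itgam or Klrg1 cells recur here. The same direction in both is therefore partly built in. Gzmc, a granzyme induced by strong cytokine stimulation, stood out for its pattern: it had 10.8 against 186 CPM in the knockout-drug library, 14.2 against 31.3 CPM in the irradiated wild-type library and 26.9 against 238 CPM in the non-irradiated library in Itgam or Klrg1 cells against cells with neither (log2 fold change -3.15 ± 0.34 (SE), adjusted p = 0.0015, edgeR). Hilpda, a lipid droplet protein, fell by 1.06. Without cells of other types 10 of the 19 and 6 of the 18 calls were made again. Slpi, which had the smallest p on the higher side (log2 fold change 3.47 ± 0.33), and Saa3, Ly6c1, S100a8 and Clec4e were not among them. The MHC class II genes Cd74, H2-Aa, H2-Ab1 and H2-Eb1 also fell, but were not called once cells of other types were left out. H2-Aa and S100a8 are among the 24 genes used to leave those cells out, so these losses were at least in part built in.

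The share of NK cells with a mature-stage transcript was highest in the irradiated wild-type library at 1000 UMIs per cell, but not in every setting. Each thinned share comes from 1 random draw, and the spread between draws was not measured. A change of order between depths thus cannot be told apart from the draw. With each cell thinned to 1000 UMIs, 17.0% (13.4 to 21.0, exact binomial) of 400 knockout-drug NK cells, 23.8% (19.1 to 29.0) of 303 irradiated wild-type cells and 17.9% (13.3 to 23.2) of 252 non-irradiated cells had an Itgam or Klrg1 UMI; 1 knockout-drug cell was too shallow. The difference was -6.76 percentage points (95% interval -12.9 to -0.789, counting error only) for knockout-drug minus irradiated wild-type cells, and -7.52 (-12.4 to -2.94) for Itgam alone. It was -0.506 (-6.89 to 5.73) without cells of other types, and 0.627 (-5.30 to 6.34) in cells with at most 10% mitochondrial UMIs. For irradiated wild-type minus non-irradiated cells it was 5.91 (-0.936 to 12.5), and 0.530 (-5.98 to 6.88) with at most 10% mitochondrial UMIs. At 2000 UMIs the shares were 33.7% (knockout-drug), 34.7% (irradiated wild-type) and 35.1% (non-irradiated), and unthinned they were 55.9% (knockout-drug), 59.7% (irradiated wild-type) and 60.3% (non-irradiated). In gated B cells at most 0.19% had such a UMI after thinning. A Cd27 UMI was found in 2.25% of knockout-drug, 1.32% of irradiated wild-type and 1.19% of non-irradiated NK cells at 1000 UMIs, or 9 (knockout-drug), 4 (irradiated wild-type) and 3 (non-irradiated) cells. The order was the opposite at 2000 UMIs, with 1.77% (knockout-drug), 3.00% (irradiated wild-type) and 5.24% (non-irradiated), and unthinned, with 7.23% (knockout-drug), 9.90% (irradiated wild-type) and 10.7% (non-irradiated). No order is read from such few cells. Summed over all NK cells, Cd27 had a level of 15.9 CPM (11.1 to 22.0) in knockout-drug cells, 23.8 CPM (16.8 to 32.8) in irradiated wild-type cells and 19.9 CPM (13.6 to 28.1) in non-irradiated cells, with overlapping intervals. Itgam had a level of 92.1 CPM (80.0 to 105) in knockout-drug cells, 139.5 CPM (122 to 159) in irradiated wild-type cells and 92.1 CPM (77.8 to 108) in non-irradiated cells. Klrg1 had a level of 116 CPM (103 to 131) in knockout-drug cells, 118 CPM (101 to 136) in irradiated wild-type cells and 97.7 CPM (83.0 to 114) in non-irradiated cells, again overlapping. Over all gated cells, Itgam was thus the 1 of these 3 genes with an interval apart from the others, in the irradiated wild-type library. None of the 3 passed a 2-fold difference. Cells of other types held 14.6% of knockout-drug, 4.04% of irradiated wild-type and 34.0% of non-irradiated UMIs in these sums. Unthinned, an Itgam UMI was found in 35.7% (31.0 to 40.6) of knockout-drug and 45.9% (40.2 to 51.7) of irradiated wild-type NK cells. In non-irradiated cells it was 42.9% (36.7 to 49.2), which overlaps both.

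NK cells made up more of both irradiated libraries. They were 4.06% (3.68 to 4.46) of knockout-drug cells, 5.22% (4.66 to 5.82) of irradiated wild-type cells and 1.92% (1.70 to 2.18) of non-irradiated cells. That is 2.71 times the non-irradiated share in the irradiated wild-type library and 2.11 times in the knockout-drug library, with the knockout-drug share at 0.777 of the irradiated wild-type share. The ratios depended on which cells were counted: among gated T, B and NK cells together, NK cells were 6.82% (6.19 to 7.49) in the knockout-drug library, 9.11% (8.15 to 10.1) in the irradiated wild-type library and 7.54% (6.67 to 8.49) in the non-irradiated library. On that base the irradiated wild-type ratio to the non-irradiated library was 1.21 and the knockout-drug ratio was 0.904, below 1. A share cannot show whether there were more NK cells or fewer of the rest.

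**Figure D2:**
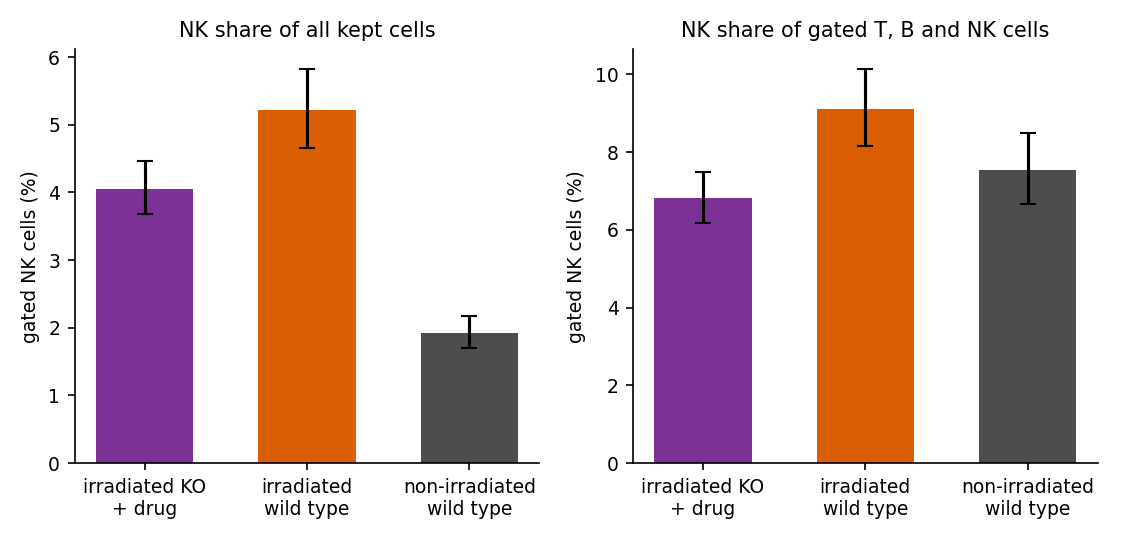
Share of gated NK cells (percent, vertical axes) in each library, out of all kept cells (left) and out of gated T, B and NK cells (right); bars are the shares and whiskers exact 95% binomial intervals. The irradiated wild-type bar is the highest in both panels, at 5.22% and 9.11%, while the non-irradiated bar is the lowest of all cells, at 1.92%, and not of lymphocytes, at 7.54%.

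Between libraries, genes were called apart when their CPM differed at least 2-fold with 5 CPM added and the higher library held at least 30 UMIs. In irradiated wild-type over non-irradiated NK cells, 86 of 5944 genes (1.45%) were higher and 428 (7.20%) lower. Without cells of other types, 122 of 5145 (2.37%) were higher and 53 (1.03%) lower. In knockout-drug over irradiated wild-type NK cells, 180 of 6297 (2.86%) were higher and 53 (0.842%) lower, and without cells of other types 16 of 5639 (0.284%) and 46 (0.816%). In knockout-drug over non-irradiated NK cells, 31 of 6452 (0.480%) were higher and 277 (4.29%) lower, and without cells of other types 28 of 5474 (0.512%) and 48 (0.877%). Among genes at 20% or more of their highest level in another gated cell class, 75 (1.38%) were higher and 90 (1.66%) lower in irradiated wild-type over non-irradiated cells, 21 (0.365%) and 38 (0.660%) in knockout-drug over irradiated wild-type cells, and 18 (0.308%) and 66 (1.13%) in knockout-drug over non-irradiated cells. The long side of each split thus shortened under either restriction. Leaving out cells by genes of other cell types builds in part of that shortening. The 10 genes furthest down in irradiated wild-type cells include such genes. Acta2, of smooth muscle, had 35.3 CPM in knockout-drug cells, 3.22 CPM in irradiated wild-type cells and 362 CPM in non-irradiated cells. In non-irradiated cells Acta2 had 20.7 CPM once cells of other types were left out. Acta2 is among the 24 genes of that rule, as are Tagln and Mmrn1 below, so this fall was built in. Ccl21a, a lymphatic chemokine, had 0.441 CPM in knockout-drug cells, 0 CPM in irradiated wild-type cells and 427 CPM in non-irradiated cells, all 686 non-irradiated UMIs lying in 15 cells. The others were Tagln, Myh11, Mmrn1, Tpm2, Gng11, Ctgf, Cavin3 and Myl9, mostly genes of muscle, vessel and stroma.

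Rora, Gata3, Ikzf1 and Eomes stood highest and Klf2 lowest in irradiated wild-type NK cells. Lists are counted by members at least 1.5-fold apart, with 20 UMIs over both libraries; of all genes, 10.3% were so much higher and 11.8% lower in irradiated wild-type over non-irradiated NK cells, 5.96% and 7.53% in knockout-drug over irradiated wild-type cells. With cells of other types left out those percentages were 14.3 and 4.08, and 2.25 and 8.48. Of 31 transcription factors, 9 were higher and 4 lower in irradiated wild-type over non-irradiated cells, with a median log2 ratio of 0.40 against 0.07 for all genes. In knockout-drug over irradiated wild-type cells 1 was higher and 7 were lower, median -0.33 against -0.07. Without cells of other types the counts were 10 and 3 of 29, and 1 and 9 of 31. The 2 comparisons share the irradiated wild-type library, so 1 high or low value there moves both.

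The maturation lists did not move as 1 block. Of 17 early-maturation genes 3 were higher and 2 lower in irradiated wild-type over non-irradiated cells (median log2 ratio 0.01), and 2 were higher and 3 lower in knockout-drug over irradiated wild-type cells (median -0.32). Of 19 late-maturation genes 4 were higher and 1 lower in the first comparison (median 0.37), and 1 was higher and 4 lower in the second (median -0.28). With cells of other types left out, the early genes had 3 higher and 2 lower of 16 and 1 and 3 of 17, and the late genes 2 and 1 of 19 and 1 and 3 of 19. Of 24 genes of trafficking, egress and residency, 4 were higher and 4 lower in the first and 3 higher and 1 lower in the second, and without cells of other types 3 and 1 of 23 and 1 and 0 of 23. Of 12 ILC1 genes, 2 were higher and 4 lower in the first and 5 higher and 2 lower in the second, and without cells of other types 2 and 2 of 9, and 3 and 2 of 10.

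Rora had a level of 119.9 CPM (106 to 135) in knockout-drug cells, 269 CPM (244 to 297) in irradiated wild-type cells and 93.9 CPM (79.5 to 110.2) in non-irradiated cells. The ratio was 2.87 (2.38 to 3.48) for irradiated wild-type over non-irradiated cells and 0.445 (0.381 to 0.520) for knockout-drug over irradiated wild-type cells. Leaving out cells of other types, Rora stood at 125 CPM in knockout-drug cells, 245 CPM in irradiated wild-type cells and 69.8 CPM in non-irradiated cells, and in female cells alone at 131 CPM in knockout-drug cells, 306 CPM in irradiated wild-type cells and 99.8 CPM in non-irradiated cells. Irradiated wild-type cells stayed highest in each set. Its log2 ratio of irradiated wild-type over non-irradiated cells was 1.11 in gated T cells and 0.12 in gated B cells, against 1.47 in NK cells.

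Klf2 showed the opposite order. It had a level of 2006 CPM (1948 to 2065) in knockout-drug cells, 1263 CPM (1208 to 1320.1) in irradiated wild-type cells and 2451 CPM (2375 to 2529) in non-irradiated cells, with ratios of 0.515 (0.488 to 0.544) and 1.59 (1.51 to 1.68) in the 2 comparisons. With cells of other types removed it had 2153 CPM in knockout-drug cells, 1311 CPM in irradiated wild-type cells and 3040.1 CPM in non-irradiated cells. The lower level of irradiated wild-type cells was shared by lymphocytes of other kinds: the log2 ratio over non-irradiated cells was -1.80 in T cells and -1.08 in B cells, against -0.95 in NK cells. S1pr1, the sphingosine receptor that Klf2 induces, had 26.4 CPM in knockout-drug cells, 10.3 CPM in irradiated wild-type cells and 42.9 CPM in non-irradiated cells. In the set without cells of other types S1pr1 had 14.5 CPM in knockout-drug cells, 10.7 CPM in irradiated wild-type cells and 17.0 CPM in non-irradiated cells, and neither comparison then reached 1.5-fold.

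Gata3 and Ikzf1 were, like Rora, highest in irradiated wild-type cells, whereas Tcf7 and Myb were lowest in knockout-drug cells. Gata3, which guides early lymphoid and tissue-resident cells, had a level of 63.0 CPM (53.1 to 74.2) in knockout-drug cells, 120.3 CPM (104 to 139) in irradiated wild-type cells and 62.2 CPM (50.6 to 75.7) in non-irradiated cells. Ikzf1 (Ikaros) had 80.7 CPM in knockout-drug cells, 107 CPM in irradiated wild-type cells and 56.6 CPM in non-irradiated cells. Both levels were highest in irradiated wild-type cells, and their ratios over non-irradiated cells were 1.93 (1.51 to 2.49) and 1.90 (1.46 to 2.48). Tcf7 (TCF-1), a factor of early NK cells, had 16.7 CPM in knockout-drug cells, 44.4 CPM in irradiated wild-type cells and 23.6 CPM in non-irradiated cells, and Myb had 76.7 CPM in knockout-drug cells, 145 CPM in irradiated wild-type cells and 134 CPM in non-irradiated cells. Knockout-drug cells were therefore lowest in both, with ratios over irradiated wild-type cells of 0.377 (0.247 to 0.569) for Tcf7 and 0.530 (0.432 to 0.649) for Myb. Eomes was 1.54 times higher (1.34 to 1.77) in irradiated wild-type than in non-irradiated cells, 337 against 237 CPM without cells of other types. Tbx21 had 84.2 CPM in knockout-drug cells, 97.7 CPM in irradiated wild-type cells and 84 CPM in non-irradiated cells, with overlapping intervals.

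**Figure D3:**
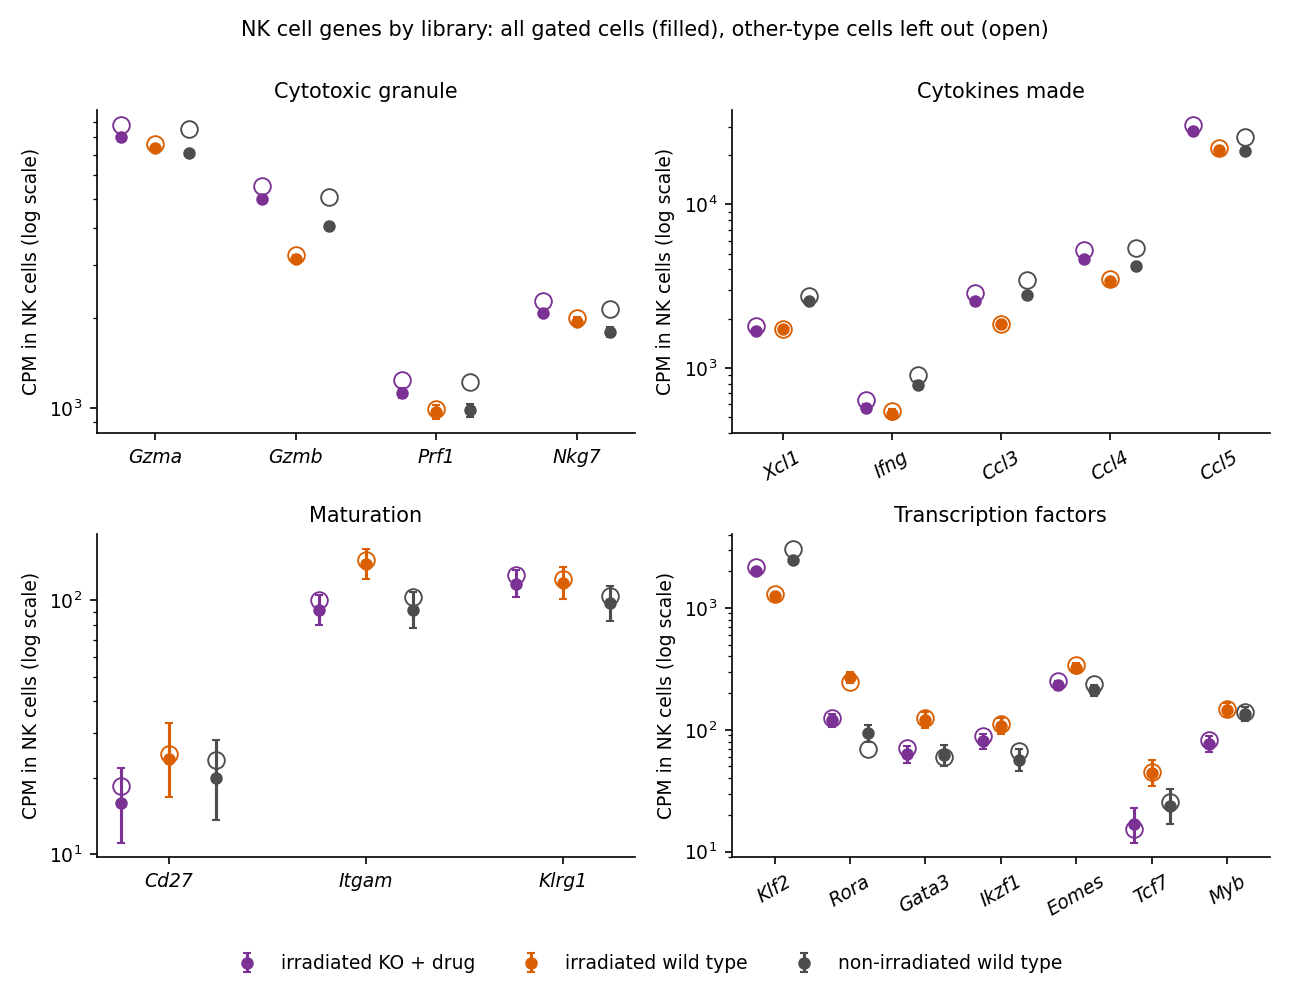
CPM (log scale, vertical axes) of granule, cytokine, maturation and transcription factor genes in NK cells of each library; filled points are all gated NK cells with exact 95% Poisson intervals, open circles the same after NK cells with other cell types' transcripts are left out. Klf2 is lowest and Rora, Gata3, Ikzf1 and Eomes are highest in irradiated wild-type cells, and the open circles of Klf2 keep that order.

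Over all gated NK cells, perforin and granzyme A were near level in the 3 libraries, while granzyme B was highest in knockout-drug cells. Of 19 granule genes measured in irradiated wild-type over non-irradiated cells 2 were higher and 2 lower (median -0.02). Of 19 in knockout-drug over irradiated wild-type cells 3 were higher and 2 lower (median 0.18). Without cells of other types these were 1 and 3 of 18, and 1 and 1 of 18. The medians were then -0.17 and 0.20, against 0.15 and -0.10 for all genes. Gzmb had a level of 4997 CPM (4906 to 5090.3) in knockout-drug cells, 3143 CPM (3056 to 3233) in irradiated wild-type cells and 4039 CPM (3942 to 4139) in non-irradiated cells. Its ratios were 0.778 (0.750 to 0.808) for irradiated wild-type over non-irradiated cells and 1.59 (1.54 to 1.64) for knockout-drug over irradiated wild-type cells, and without cells of other types the levels were 5493 CPM in knockout-drug cells, 3241 CPM in irradiated wild-type cells and 5064 CPM in non-irradiated cells. Prf1 and Gzma differed by at most 1.15-fold in any of these ratios over all gated cells. Those sums include the cells of other types, which held 14.6% of knockout-drug, 4.04% of irradiated wild-type and 34.0% of non-irradiated NK UMIs. Whether Prf1 and Gzma stay near level without those cells is not stated here. Gzmc was found in only 25 knockout-drug, 15 irradiated wild-type and 30 non-irradiated cells, at 85.9 CPM in knockout-drug cells, 21.2 CPM in irradiated wild-type cells and 111 CPM in non-irradiated cells; without cells of other types the knockout-drug level was 18.1 CPM, and the irradiated wild-type and non-irradiated levels were 22.1 and 155 CPM. The higher Gzmc of non-irradiated cells thus stayed in that smaller set, and that of knockout-drug cells did not. Rab27a, a GTPase that docks granules for release, had 8.37 CPM in knockout-drug cells, 15.4 CPM in irradiated wild-type cells and 4.35 CPM in non-irradiated cells. Ctsd, a lysosomal protease, had 553 CPM in knockout-drug cells, 868 CPM in irradiated wild-type cells and 513 CPM in non-irradiated cells, and near-level values of 586 CPM in knockout-drug cells, 579 CPM in irradiated wild-type cells and 541 CPM in non-irradiated cells without cells of other types.

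Of the 16 cytokines and chemokines made by NK cells that could be measured in irradiated wild-type over non-irradiated cells, 0 were 1.5-fold higher and 4 lower (Tnf, Csf1, Tnfsf10 and Areg); without cells of other types it was 0 and 9 of 13, with a median log2 ratio of -0.66 against 0.15 for all genes. The following 5, the most abundant, were chosen after their values were seen. Ifng, interferon-γ, had a level of 568 CPM (537 to 599.5) in knockout-drug cells, 523 CPM (488 to 561) in irradiated wild-type cells and 783 CPM (740.5 to 828) in non-irradiated cells. Xcl1 had a level of 1677 CPM (1624 to 1731) in knockout-drug cells, 1718 CPM (1654 to 1785) in irradiated wild-type cells and 2573 CPM (2495 to 2652) in non-irradiated cells. Both irradiated libraries lay below the non-irradiated one, each with a ratio of 0.668 for irradiated wild-type over non-irradiated cells. Ccl3 had 2549 CPM in knockout-drug cells, 1849 CPM in irradiated wild-type cells and 2775 CPM in non-irradiated cells, Ccl4 had 4666 CPM in knockout-drug cells, 3403 CPM in irradiated wild-type cells and 4219 CPM in non-irradiated cells, and Ccl5 had 28071 CPM in knockout-drug cells, 21480.1 CPM in irradiated wild-type cells and 21224 CPM in non-irradiated cells. For Ccl3 and Ccl4 the irradiated wild-type cells were lowest, and Ccl5 was highest in knockout-drug cells. Without cells of other types Ccl3 had 2872 (knockout-drug), 1860 (irradiated wild-type) and 3431 (non-irradiated) CPM. In the same order Ccl4 had 5235, 3518 and 5381 CPM, and Ccl5 had 30663, 22102 and 25829 CPM. Ccl4 was then highest in non-irradiated cells. Ccl5 was then lowest in irradiated wild-type cells, with a ratio over non-irradiated cells of 0.856 (0.842 to 0.870). In knockout-drug over irradiated wild-type cells 5 of 17 members were higher and 0 lower, 4 and 0 of 14 without cells of other types. Areg, amphiregulin, an epithelial repair factor, had 24 UMIs in 10 knockout-drug cells, 0 UMIs in irradiated wild-type cells, which allows up to 1.93 CPM at 3 counts, and 30 UMIs in 7 non-irradiated cells.

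Receptor genes were counted by family. Of 18 Ly49 and NKG2 family genes 4 were higher and 0 lower at 1.5-fold in irradiated wild-type over non-irradiated cells, and 0 of 17 without cells of other types; 0 of 18 passed in knockout-drug over irradiated wild-type cells. Klra8, the activating receptor Ly49H, which binds a cytomegalovirus protein, had 323 CPM in knockout-drug cells, 487 CPM in irradiated wild-type cells and 318 CPM in non-irradiated cells. Klra9 had 435 CPM in knockout-drug cells, 342 CPM in irradiated wild-type cells and 269 CPM in non-irradiated cells, and Klrc2, the activating NKG2C, had 138 CPM in knockout-drug cells, 153 CPM in irradiated wild-type cells and 97.7 CPM in non-irradiated cells. Of 19 activating receptors and adaptors, 2 kinases that relay their signals were higher in irradiated wild-type over non-irradiated cells (1 of 19 without cells of other types): Syk, with 43.2 CPM in knockout-drug cells, 68.8 CPM in irradiated wild-type cells and 42.3 CPM in non-irradiated cells, and Zap70, with 38.3 CPM in knockout-drug cells, 59.2 CPM in irradiated wild-type cells and 36.7 CPM in non-irradiated cells. Of the 9 inhibitory receptors, 3 were higher and 1 lower, with or without cells of other types; the low-count Ctla4 and Lair1 passed 2-fold, with 11.9 CPM in knockout-drug cells, 25.7 CPM in irradiated wild-type cells and 7.46 CPM in non-irradiated cells for Ctla4 and 14.1 CPM in knockout-drug cells, 23.8 CPM in irradiated wild-type cells and 7.46 CPM in non-irradiated cells for Lair1. Ctla4 lay under 20% of its T cell level in each library. Of 32 cytokine receptor and signalling genes 5 were higher and 4 lower, and 2 and 2 of 30 without cells of other types. Il18r1 had 80.2 CPM in knockout-drug cells, 116 CPM in irradiated wild-type cells and 75.9 CPM in non-irradiated cells, Smad3, which carries TGF-β signals, had 66.1 CPM in knockout-drug cells, 88.7 CPM in irradiated wild-type cells and 46.0 CPM in non-irradiated cells, and Socs3, a feedback inhibitor, had 84.6 CPM in knockout-drug cells, 70.7 CPM in irradiated wild-type cells and 148 CPM in non-irradiated cells. The last was also lower in irradiated wild-type T and B cells (log2 ratios -1.32 and -1.78). Il21r, the interleukin-21 receptor, was highest in knockout-drug cells, with 172 CPM in knockout-drug cells, 102 CPM in irradiated wild-type cells and 123 CPM in non-irradiated cells. The integrin chain Itgb7 was lowest in non-irradiated cells, with 125 CPM in knockout-drug cells, 139.5 CPM in irradiated wild-type cells and 71.5 CPM in non-irradiated cells.

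**Figure D4:**
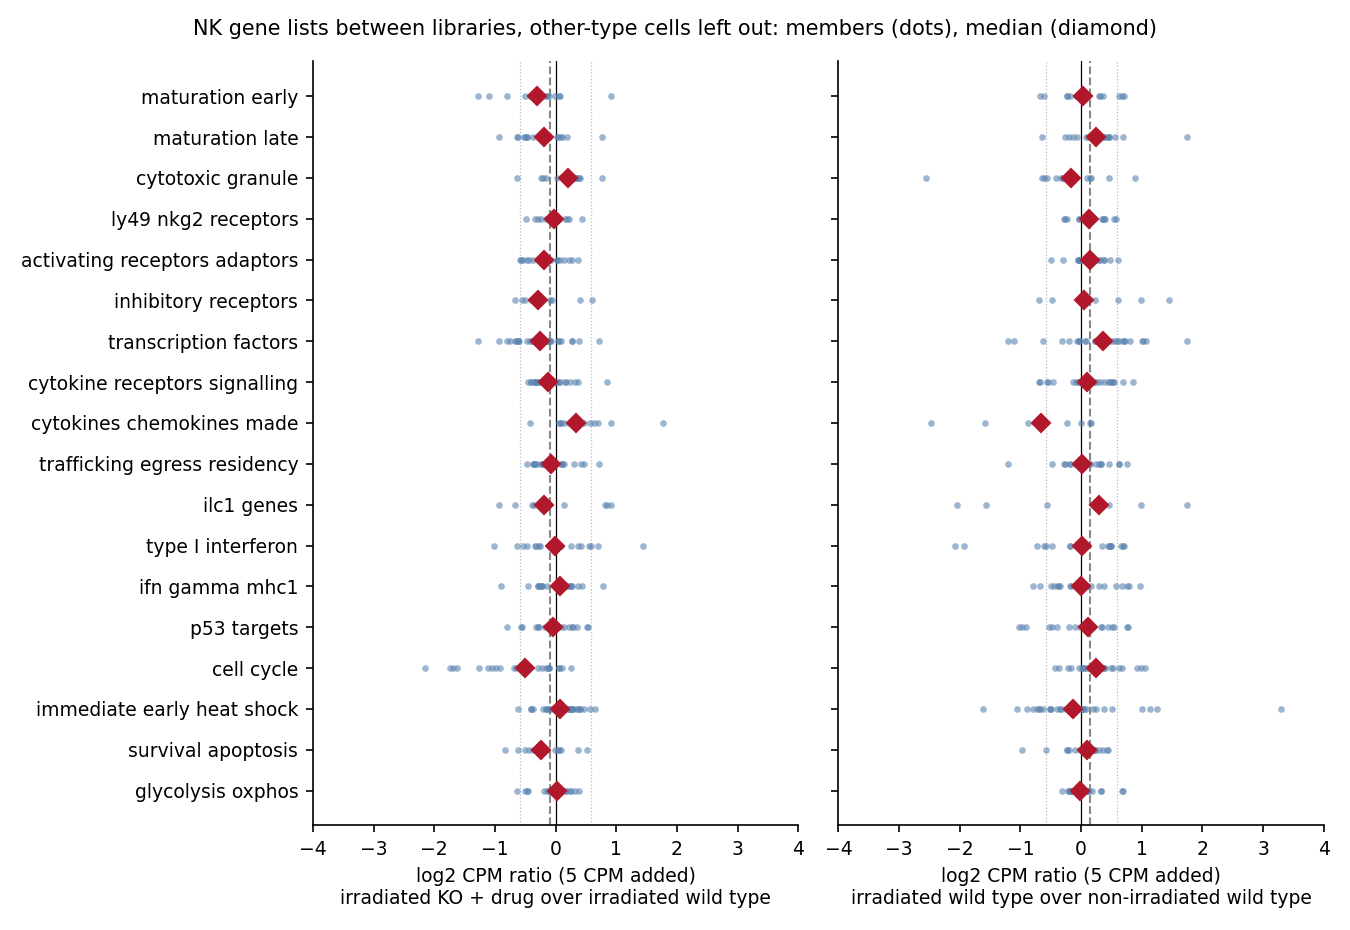
Log2 CPM ratios (5 CPM added, horizontal axes) of the members of 18 gene lists in NK cells without cells of other types, for irradiated knockout plus drug over irradiated wild type (left) and irradiated wild type over non-irradiated wild type (right); dots are members with 20 or more UMIs, diamonds list medians, the dashed line the median of all genes and dotted lines a 1.5-fold difference. The cell cycle list lies lowest on the left (median -0.50), and the cytokine list lies lowest on the right (median -0.66).

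Cell cycle transcripts were lower in knockout-drug than in irradiated wild-type NK cells. Of 25 measured, 10 were at least 1.5-fold lower and 0 higher in knockout-drug over irradiated wild-type cells, with a median log2 ratio of -0.51, and without cells of other types 11 of 24 and -0.50. Top2a, the topoisomerase of dividing cells, had a level of 16.3 CPM (11.5 to 22.5) in knockout-drug cells, 48.2 CPM (37.9 to 60.5) in irradiated wild-type cells and 30.5 CPM (22.5 to 40.3) in non-irradiated cells. Mki67, the proliferation antigen Ki-67, had 10 UMIs in 5 knockout-drug cells, 36 UMIs in 5 irradiated wild-type cells and 30 UMIs in 8 non-irradiated cells. Pclaf, a PCNA-binding factor of DNA replication, had 1 UMI in 1 knockout-drug cell, 52 UMIs in 8 irradiated wild-type cells and 40 UMIs in 6 non-irradiated cells. The levels of these 2 genes thus rest on at most 8 cells in a library. Rrm1 and Dut, which supply deoxynucleotides, were spread wider. Rrm1 had 13.2 CPM in knockout-drug cells, 32.2 CPM in irradiated wild-type cells and 19.9 CPM in non-irradiated cells, and Dut had 15 CPM in knockout-drug cells, 45.0 CPM in irradiated wild-type cells and 33.0 CPM in non-irradiated cells. Top2a, Rrm1 and Dut were each lowest in knockout-drug cells and highest in irradiated wild-type cells. In irradiated wild-type over non-irradiated cells 1 of 27 cell cycle genes was higher and 0 lower, and without cells of other types 5 and 0 of 25. In knockout-drug over non-irradiated cells 6 of 23 were lower (median -0.45), but without cells of other types 2 of 18 (median -0.17), with 0 higher in both. Of all genes in that comparison 9.93% were lower and 3.73% higher (median -0.003). Without cells of other types 4.26% were lower and 5.79% higher (median 0.06).

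Targets of p53, which DNA damage activates, showed no common shift. Of 24 measured in irradiated wild-type over non-irradiated cells 1 was higher and 5 lower, with a median of 0.02, and in knockout-drug over irradiated wild-type cells 3 were higher and 1 lower, with a median of 0.07. Without cells of other types the counts were 2 and 3 of 20 and 0 and 1 of 20. Cdkn1a, the p53-induced cell cycle inhibitor p21, chosen after its values were seen, had a level of 301 CPM (279 to 325) in knockout-drug cells, 221 CPM (198 to 245) in irradiated wild-type cells and 300.4 CPM (274 to 328) in non-irradiated cells. Trp53inp1 had 41.0 CPM in knockout-drug cells, 70.7 CPM in irradiated wild-type cells and 38.6 CPM in non-irradiated cells, and it was the 1 member higher in irradiated wild-type cells. Gdf15 was higher in knockout-drug cells through 121 UMIs in 8 cells; without cells of other types it had 4.13 CPM in knockout-drug cells, 0.670 CPM in irradiated wild-type cells and 6.6 CPM in non-irradiated cells. Phlda3 had 1.55 CPM in knockout-drug cells, 0 CPM in irradiated wild-type cells and 6.6 CPM in non-irradiated cells in that smaller set. Type I interferon genes had medians of 0.00 and 0.02 in the 2 comparisons, with 3 of 22 higher and 5 lower, and 8 of 26 higher and 2 lower; without cells of other types these were 3 of 20 and 4, and 3 of 21 and 2. Isg15 had 58.2 CPM in knockout-drug cells, 25.1 CPM in irradiated wild-type cells and 39.2 CPM in non-irradiated cells, and without cells of other types 42.3 CPM in knockout-drug cells, 24.1 CPM in irradiated wild-type cells and 38.6 CPM in non-irradiated cells. Bst2 had 71.8 CPM in knockout-drug cells, 27.0 CPM in irradiated wild-type cells and 66.6 CPM in non-irradiated cells, but without cells of other types 32.0 CPM in knockout-drug cells, 26.1 CPM in irradiated wild-type cells and 42.4 CPM in non-irradiated cells. Ly6a, which vascular cells also express strongly, had 70.5 CPM in knockout-drug cells, 4.50 CPM in irradiated wild-type cells and 65.3 CPM in non-irradiated cells and then 5.16 CPM in knockout-drug cells, 2.68 CPM in irradiated wild-type cells and 27.3 CPM in non-irradiated cells. Interferon-γ and MHC class I genes had medians of -0.01 and 0.11 over 27 members. Survival genes (17 and 18 measured) and genes of glycolysis and respiration (26 measured) had medians between -0.18 and 0.16.

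The immediate early and heat shock genes went both ways. Of 34, 3 were higher and 9 lower in irradiated wild-type over non-irradiated cells (median -0.15), and 4 and 8 without cells of other types; in knockout-drug over irradiated wild-type cells 2 were higher and 0 lower (median 0.16), and 1 and 1 without cells of other types. The heat shock genes Hspa1b, Hspa1a, Hsph1 and Dnajb1, named after their values were seen, were 12.5, 2.52, 2.44 and 2.06 times as high in irradiated wild-type as in non-irradiated cells without cells of other types. There, Hspa1b had 129 CPM in knockout-drug cells, 201 CPM in irradiated wild-type cells and 16.0 CPM in non-irradiated cells. Fos had 133 CPM in knockout-drug cells, 61.7 CPM in irradiated wild-type cells and 338 CPM in non-irradiated cells, and without cells of other types 58.8 CPM in knockout-drug cells, 59.6 CPM in irradiated wild-type cells and 130.1 CPM in non-irradiated cells. Egr1 had 81.5 CPM in knockout-drug cells, 69.5 CPM in irradiated wild-type cells and 219 CPM in non-irradiated cells, and then 63.0 CPM in knockout-drug cells, 61.0 CPM in irradiated wild-type cells and 70.7 CPM in non-irradiated cells. The lower Fos of irradiated wild-type cells thus remained past 2-fold with those cells left out, and the lower Egr1 (ratio 0.863) did not. Jun, also named later, was near level in that set, with a ratio of 0.953. These genes also respond to tissue dissociation, whose part was not tested. Among genes that mark ILC1, Tmem176b had 118 CPM in knockout-drug cells, 22.5 CPM in irradiated wild-type cells and 130.0 CPM in non-irradiated cells, and without cells of other types 7.74 CPM in knockout-drug cells, 9.38 CPM in irradiated wild-type cells and 37.7 CPM in non-irradiated cells.

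Of the 10 genes highest in irradiated wild-type over non-irradiated cells, none is a classical NK gene, and each was measured by few UMIs. Slc15a2, a peptide transporter, had a level of 7.05 CPM (4.03 to 11.5) in knockout-drug cells, 41.8 CPM (32.3 to 53.3) in irradiated wild-type cells and 8.09 CPM (4.31 to 13.8) in non-irradiated cells. It was also furthest down in knockout-drug over irradiated wild-type cells among genes not tied to division, with a ratio of 0.169 (0.0911 to 0.295). In T cells its log2 ratios were 0.83 and -1.69 in the 2 comparisons, and in B cells 1.02 and -1.86, with the signs seen in NK cells. Padi2, a peptidylarginine deiminase, had 45.8 CPM in knockout-drug cells, 62.4 CPM in irradiated wild-type cells and 21.1 CPM in non-irradiated cells. Pde3b, a phosphodiesterase that breaks down cyclic AMP, had 52.9 CPM in knockout-drug cells, 82.3 CPM in irradiated wild-type cells and 29.9 CPM in non-irradiated cells. Nlrc3, an inhibitor of innate signalling, had 13.7 CPM in knockout-drug cells, 27.7 CPM in irradiated wild-type cells and 6.22 CPM in non-irradiated cells, and Ide, the insulin-degrading enzyme, had 25.6 CPM in knockout-drug cells, 43.1 CPM in irradiated wild-type cells and 11.2 CPM in non-irradiated cells. The remaining 5 were Wdhd1, Ipcef1, Cfap46, Togaram1 and Card6, with ratios over non-irradiated cells between 3.26 and 6.82. Each of the 10 had its lowest level in non-irradiated cells except Slc15a2, which was lowest in knockout-drug cells.

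In knockout-drug over irradiated wild-type cells, several of the 10 highest genes lay in a handful of cells or had copies elsewhere. Cst3, cystatin C, had 869.6 CPM in knockout-drug cells, 122 CPM in irradiated wild-type cells and 517 CPM in non-irradiated cells, and without cells of other types 143 CPM in knockout-drug cells, 104 CPM in irradiated wild-type cells and 201 CPM in non-irradiated cells. Eif3j2 had 33.5 CPM in knockout-drug cells, 1.93 CPM in irradiated wild-type cells and 4.35 CPM in non-irradiated cells, in 67 knockout-drug, 2 irradiated wild-type and 7 non-irradiated cells; it has a near-identical copy, Eif3j1, so the count is uncertain, and its log2 ratio was 1.98 in T cells and 2.32 in B cells. Orai3, a calcium channel subunit, had 17.6 CPM in knockout-drug cells, 3.22 CPM in irradiated wild-type cells and 10.6 CPM in non-irradiated cells. The others were Gzmc, Alas2, Ccl17, Ccl22, Tbc1d4, Fscn1 and Penk, of which Alas2, Ccl17, Ccl22, Fscn1 and Penk each lay in 3 to 5 knockout-drug cells. On the lower side, Lars2, a mitochondrial leucyl-tRNA synthetase, had a level of 347 CPM (323 to 372) in knockout-drug cells, 860.4 CPM (815 to 908) in irradiated wild-type cells and 409.9 CPM (379 to 442) in non-irradiated cells, with log2 ratios over irradiated wild-type cells of -1.21 in T and -1.27 in B cells against -1.30 in NK cells. The X-linked Mid1 had 33.5 CPM in knockout-drug cells, 118 CPM in irradiated wild-type cells and 113 CPM in non-irradiated cells, and in female cells alone 32.3 CPM in knockout-drug cells, 173 CPM in irradiated wild-type cells and 115 CPM in non-irradiated cells; its T and B cell ratios were -2.19 and -1.95. Thy1, a surface antigen of activated and early NK cells, had a level of 22.0 CPM (16.4 to 29.1) in knockout-drug cells, 57.9 CPM (46.5 to 71.1) in irradiated wild-type cells and 67.2 CPM (55.1 to 81.1) in non-irradiated cells. Its ratio of 0.381 (0.264 to 0.544) went with log2 ratios of -0.48 in T and -0.38 in B cells, against -1.22 in NK cells. Dtl, of DNA replication, had 6.17 CPM in knockout-drug cells, 20.6 CPM in irradiated wild-type cells and 10.6 CPM in non-irradiated cells; Tcf7, Top2a, Pclaf, Mki67, Dut and Slc15a2 completed the 10.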

How the data were processed

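Each group is 1 droplet-based, poly-dT-primed RNA profile of dissociated lung cells (3 in all). The values are UMI counts per gene and barcode, deposited by the authors as matrices; per the file headers they come from software version 3.1.0 (not named), and per the submitters' processing notes the build is mm10. Further filtering by the authors is not given in the sources used here. No column went unused (0). NK members, gene lists and rules were chosen with earlier results of these data known.

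Gene levels between libraries are sums over NK cells, as CPM of NK UMIs, with exact Poisson and conditional binomial 95% intervals; gate genes were left out of gene results. A floor is 3 counts. Named genes are the 10 highest and 10 lowest past 2-fold with 5 CPM added and 30 UMIs, at 20% or more of the highest CPM among other gated classes (mitochondrial, ribosomal, haemoglobin, clone-model, receptor-segment and sex-linked marker genes aside), up to 4 members per list, Gzma, Prf1, Eomes, Cd27, Itgam and Klrg1, and the 10 smallest adjusted p in each direction of the state contrast with list members called; others are said to be chosen later. Of each promoter 250 bases are from RefSeq GRCm38.p6, and all 5 genes sought matched.

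States were compared within libraries on 6 sums with edgeR 4.0.16 (R 4.3.3): TMM scaling, edgeR's filter, quasi-likelihood test, library as a block because both sums of a pair come from the same library, Benjamini-Hochberg adjustment. The p-values rest on how alike the difference between states was from library to library, with each library a different group. Whether a library pools mice is not stated, and the p-values measure no spread between animals. On simulated counts the Cd27 contrast (4936 genes) recovered 33% of 2-fold and 84% of 4-fold changes with 2 false calls. The other contrast (7063 genes) recovered 70% and 98% with 6. These counts were drawn from the test's own model, with the fitted spread and the same gene means in every library. They hold no UMIs massed in few cells, so their false calls do not measure those in the real sums. The fold rule (5657 genes simulated) recovered 100 of 100 genes set higher and 100 of 100 set lower and called 7 unchanged ones. The size of the change set in these genes is not given here, so their recovery does not measure how the rule does near its own limit. In the real sums the UMIs of some called genes, such as Ccl21a, lay in few cells. No conclusion on the calls between libraries is therefore drawn from this recovery. Doublets were scored with Scrublet in scanpy 1.11.5 (11 knockout-drug, 2 irradiated wild-type and 23 non-irradiated NK cells) and kept in the values above. Alternatives included DESeq2 1.42.0, other gates, thinning, scaling and leaving out libraries. Python 3.11.15 with numpy 2.4.6, scipy 1.17.1, pandas 2.3.3 and matplotlib 3.10.9 did the rest.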

Additional observations from a re-analysis of the deposited data

How the results depend on the processing

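Depth and few cells limit these values: 11 to 14 Cd27 cells per library stand behind the state contrast, genes under 30 UMIs cannot be called apart, and with 1 library per group no difference between groups can be separated from its library. The causes of the changes below were not tested. The NK share ratio of irradiated wild-type over non-irradiated (2.71) was 1.94 in female cells, 2.05 with at least 3000 UMIs, 6.01 with a strict gate (Cd79a, Ms4a1, Cd79b, Lyz2, C1qa, C1qb, C1qc, Cd8b1, Cd4 and Trac also at 0), 3.37 without cells of other types, 1.21 of gated lymphocytes and 2.17 with cells thinned before gating. Knockout-drug over irradiated wild-type (0.777) was 0.548 with the strict gate and 0.937 thinned, and knockout-drug over non-irradiated (2.11) was 1.75, 1.70, 3.29 and 2.49 in the first 4 settings and turned to 0.904 of lymphocytes. The share with an Itgam or Klrg1 UMI was 5.91 percentage points higher in irradiated wild-type than in non-irradiated cells at 1000 UMIs. The difference was -0.581 unthinned, -0.414 at 2000 UMIs and 0.530 at 10% mitochondrial UMIs. Knockout-drug minus irradiated wild-type, -6.76, became 1.36 with at least 3 gate UMIs and 0.627 at 10% mitochondrial UMIs. It was -0.506 without cells of other types and 0.439 for Klrg1 alone.

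Genes higher in irradiated wild-type over non-irradiated cells (86) numbered 52 in female cells, 239 with the strict gate, 16 with 20 CPM added, 55 with median-of-ratios scaling, 142 with no UMI minimum and 48 in equal numbers of thinned cells. Those lower (428) numbered 178 without scored doublets, 235 with at least 3 gate UMIs, 211 strict, 53 without cells of other types, 279 with 20 CPM, 835 with no minimum, 38 thinned and 90 without genes under 20% of another class. Knockout-drug over irradiated wild-type, higher (180), gave 38, 102, 60, 16, 64, 276, 29 and 21 in those 8 settings and 93 with cells weighted equally; lower (53) gave 19 with 20 CPM, 104 with no minimum and 32 thinned. Knockout-drug over non-irradiated, higher (31), gave 47 with 3 gate UMIs, 72 strict, 11 with 20 CPM, 60 with no minimum, 15 thinned and 18 without genes under 20%; lower (277) gave 168 without doublets, 178 with 3 gate UMIs, 48 without other types, 125 with 20 CPM, 470 with no minimum, 26 thinned and 66 without genes under 20%.

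In the Cd27 contrast without the replicate block 8 genes rose and 12 fell, against 46 and 77 with it, and none of either direction was called at 1000 UMIs (0 and 0); leaving out a library gave 7 to 55 and 6 to 94, with the lowest counts without the irradiated wild-type library. DESeq2 gave 25 higher, and no filter on low counts 105 and 30. Against cells with neither (19 and 18), leaving out a library gave 8 to 53 and 14 to 75, no replicate block 0 and 0, and DESeq2 7 lower. The strict gate could not be fitted, as it left 0 Cd27 cells in the non-irradiated library.

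Single genes that changed sign, as log2 values: in knockout-drug over irradiated wild-type, Ctgf without doublets (-0.74) and without other types (-0.10), Tagln without doublets (-0.59), Ccl17 with 3 gate UMIs (-0.12), strict (-0.0045) and thinned (-0.84), S1pr1 with 3 gate UMIs (-0.082), Fos with 3 gate UMIs (-0.28), strict (-0.60) and without other types (-0.018), Tbc1d4 strict (-0.71) and without other types (-0.53), and Gzmc (-0.23) and Tmem176b (-0.17) without other types; in irradiated wild-type over non-irradiated, Gzmc (0.31) and Tbc1d4 (0.51) strict and Lair1 thinned (-0.25); in the state contrasts, Ccl4 (-0.70) and Klf2 (-0.025) at 1000 UMIs, Slpi at 2000 UMIs (-0.94) and H2-Aa (0.21) and H2-Ab1 (0.078) without other types.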

Other observations

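A feature named dTomato, a red fluorescent reporter, is listed in the matrices. It had 13 UMIs in 7 knockout-drug NK cells, 6 UMIs in 5 irradiated wild-type NK cells and 12 UMIs in 12 non-irradiated NK cells. At 5.73 CPM (3.05 to 9.80) in knockout-drug, 3.86 CPM (1.42 to 8.40) in irradiated wild-type and 7.46 CPM (3.86 to 13.0) in non-irradiated NK cells, the intervals overlapped. Csf2, the growth factor GM-CSF, was chosen after its values were seen: it had 33.1 CPM in knockout-drug cells, 10.9 CPM in irradiated wild-type cells and 1.24 CPM in non-irradiated cells, and without cells of other types 30.5 CPM in knockout-drug cells, 5.36 CPM in irradiated wild-type cells and 0.943 CPM in non-irradiated cells.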
